A study of Rattus norvegicus with 20 samples.

Results

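The acute phase proteins examined here were alpha-2-macroglobulin (A2m), C-reactive protein (Crp), orosomucoid 1 (Orm1), haptoglobin (Hp), hemopexin (Hpx), lipocalin 2 (Lcn2), ceruloplasmin (Cp), inter-alpha-trypsin inhibitor heavy chain 4 (Itih4) and lipopolysaccharide-binding protein (Lbp), together with Stat3, a transcription factor that induces many of them. They were taken by symbol from the probe annotation, and all 10 had a probe, 1 each, among the 13337 genes named on the array. Their mRNA was followed in rat liver lesions of the Resistant-Hepatocyte (R-H) model, on 20 arrays in 4 groups of 5. Early preneoplastic foci (EPFs) came from male Fischer rats that received a single dose of diethylnitrosamine (DENA), a liver carcinogen, and later 2-acetylaminofluorene (2-AAF) in the diet with a partial hepatectomy (PH). They were collected 7 days after PH and 4 weeks after DENA, and each EPF array measured a pool of foci cut out by laser microdissection. Nodules, either CK-19-positive or CK-19-negative, came from the same protocol 7 weeks after PH and 10 weeks after DENA, each array measured a single microdissected nodule, and staining for cytokeratin-19 (CK-19) had placed each nodule in its group. Control arrays measured random areas of liver, which the study's text describes in one place as normal and in another as taken from rats on the R-H protocol, so the treatment of the controls is not settled here. No label names the rat behind an array, so the p-values measure the spread between arrays, some of which may share a rat.

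The acute phase response is the change in the plasma proteins that hepatocytes secrete after injury, infection or surgery. Cytokines of the interleukin-6 family activate STAT3, and interleukin-1 acts with it on genes such as Orm1. In the rat, A2m is the classical strongly induced acute phase protein, it is also known from fetal rat liver, and it inhibits proteinases by trapping them. Rat Crp, unlike human CRP, circulates at a high level in healthy animals.

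The array signals were quantile-normalized intensities with no unit. A gene was tested if its signal was above 200 on at least 5 of the 20 arrays, which 6102 genes passed. It was called changed at an adjusted p under 0.05 with a difference of at least 2-fold. Of the members, 9 were tested and Lcn2 was too dim. In the check of the labels, Gstp1, the placental glutathione S-transferase that marks preneoplastic hepatocytes, averaged 43601 ± 1263 in EPFs, 42150 ± 945 in CK-19-positive nodules, 22478 ± 2707 in CK-19-negative nodules and 379 ± 71.8 in control liver (SD, n = 5 each). The gene of CK-19, Krt19, had 2738 to 7686 in CK-19-positive nodules, 371 to 1118 in EPFs, 197 to 1181 in CK-19-negative nodules and 206 to 248 in control liver. The arrays lay on 4 chips. Chip 1 held all 5 CK-19-positive nodules, CK-19-negative nodule 5 and controls 1 and 2, chip 2 held CK-19-negative nodules 1 to 4 and control 3, chip 3 held controls 4 and 5, and chip 4 held only the EPFs, so chip and group cannot be told apart for the EPFs. The hepatocyte markers summed to 139277 to 150527 in EPFs, 104446 to 135679 in CK-19-positive nodules, 144977 to 161352 in CK-19-negative nodules and 127786 to 174779 in control liver, and of the 8 markers Apob alone was under 200 on every array. The single markers did not move together. In CK-19-positive nodules against control liver, Tat was the 1 called of 7 tested, with a log2 difference of -1.47. At an adjusted p under 0.05 alone 1 was higher (Alb, by 0.42) and 3 were lower. Where a marker was lower, fewer hepatocytes in the sample and less of its RNA per hepatocyte cannot be told apart in these data.

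Between EPFs and control liver, A2m was the 1 member called of the 9 tested, and it was about 10-fold higher in EPFs. Over all tested genes, 12.4% were called in that comparison, 6.26% higher and 6.15% lower. In CK-19-positive nodules against control liver, 3 members were called, Crp and Itih4 lower and Lbp higher, where 9.85% of all tested genes were called, 4.95% higher and 4.9% lower. In CK-19-negative nodules against control liver no member was called, where 1.95% of all tested genes were (1.29% higher and 0.656% lower), and at an unadjusted p under 0.05 the comparison held 2 of the 9, Crp and Orm1, where 29.3% of all tested genes passed. At an adjusted p under 0.05 with no fold threshold, 5 of the 9 members passed in EPFs against control liver, where 56% of all tested genes did. By the same rule 6 members passed for the CK-19-positive nodules, where 46.1% of all genes did, and 0 for the CK-19-negative nodules, where 16.1% did. The median log2 difference from control over the 9 members was 0.23 in EPFs, -0.07 for the CK-19-positive nodules and 0.02 for the CK-19-negative nodules, beside -0.02, -0.01 and 0.00 over all genes tested.

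**Figure D1:**
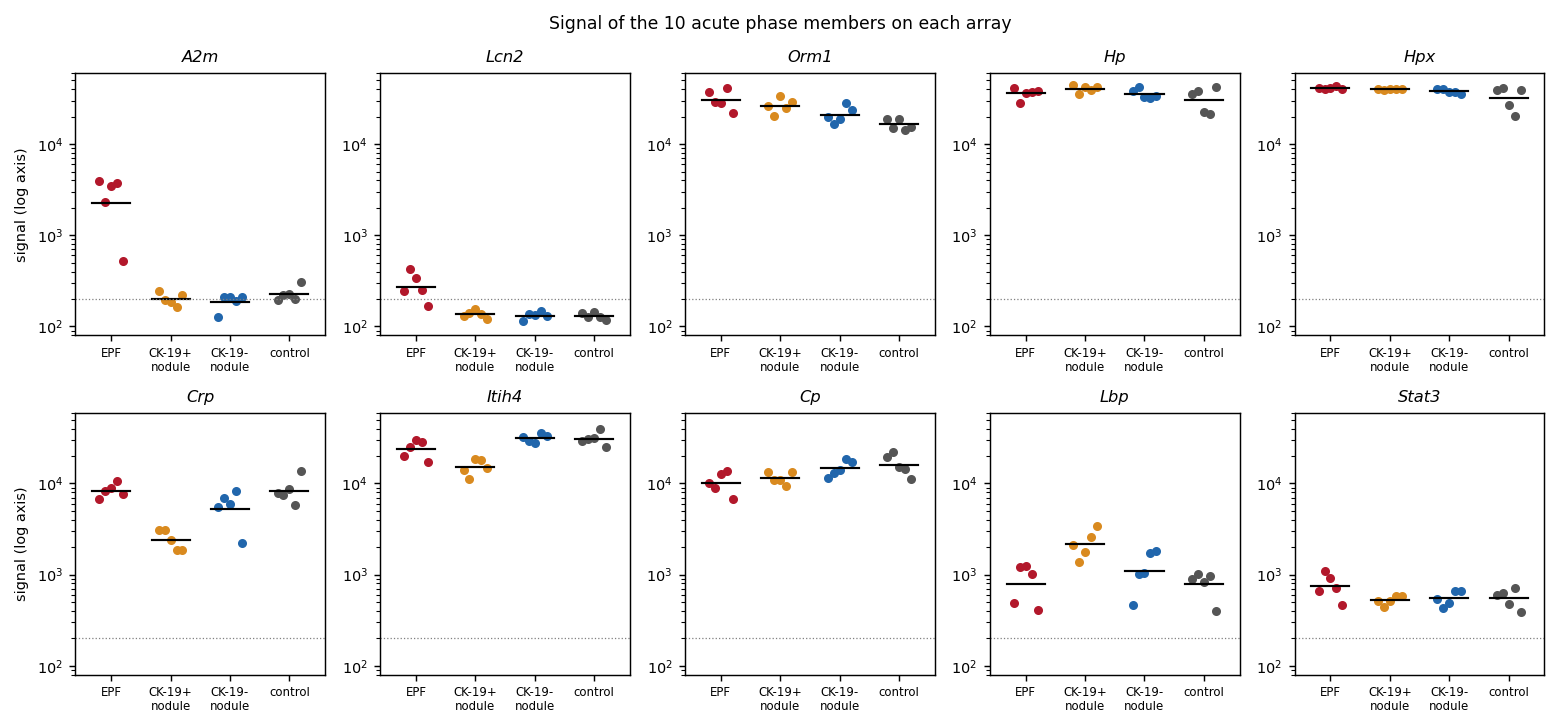
Signal of each of the 10 members (log axis, no unit) on each array, with EPFs, CK-19-positive nodules, CK-19-negative nodules and control liver from left to right, 1 point per array, a black line at the geometric mean and a dotted line at the signal filter of 200. A2m and Lcn2 stood apart in EPFs, Crp and Itih4 were low and Lbp high in CK-19-positive nodules, and Hp and Hpx were near the top of the scale in every group.

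A2m signals in EPFs were 3969, 2297, 3465, 3707 and 521 on arrays 1 to 5. In CK-19-positive nodules they were 242, 193, 186, 162 and 223, and in CK-19-negative nodules 128, 209, 211, 191 and 211. In control liver they were 197, 223, 224, 199 and 306. Every EPF array was above every array of the other groups, and EPF array 5 was far below the other EPF arrays; the EPF signals spread over 7.61-fold. The mean in EPFs was 2792 ± 1421, against 230 ± 44.6 in control liver (SD, n = 5 each). The log2 difference between EPFs and control liver was 3.33 (SE 0.36, adjusted p = 6.45e-08 by limma, the moderated linear model used throughout), and without EPF array 5 it was 3.86. A2m was lower in both kinds of nodule than in EPFs, with log2 differences of -3.52 for CK-19-positive nodules (SE 0.36, adjusted p = 8.09e-08) and -3.61 for CK-19-negative nodules (SE 0.36, adjusted p = 3.42e-08). By the exact two-sided permutation test, EPFs against each other group gave p = 0.00794, the smallest value that 5 arrays against 5 can give. In both kinds of nodule the signal was close to the filter, and the differences from control liver were -0.19 in CK-19-positive nodules (95% interval -0.93 to 0.56, adjusted p = 0.694) and -0.28 in CK-19-negative nodules (95% interval -1.03 to 0.46, adjusted p = 0.653). Because the other groups lay near the background of the array, the size depended on how background was treated, and the difference between EPFs and control liver was 4.45 after the 10% point of all signals was subtracted and 2.92 after signals under 300 were raised to 300, both past the threshold. Of 5 tested biliary and oval cell markers, 4 were called higher in EPFs than in control liver as well (Cd24 by 1.98, Tspan8 by 1.56, Epcam by 1.52 and Krt19 by 1.34). The call of Krt19 was lost after signals under 300 were raised to 300 (0.92, adjusted p = 0.0547 by limma). Of 7 macrophage and Kupffer cell markers 2 were called lower (Marco at -2.16 and Vsig4 at -1.25). Their part in the level of A2m was not tested.

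The tested genes whose log2 signals followed A2m most closely over the 20 arrays were Acot1 (Pearson r = 0.938), Nhej1 (0.934), Nip7 (0.925), Hdgfl3 (0.92) and Plcd4 (0.916). All 5 were highest in EPFs, where Acot1 averaged 1503 ± 680, against 141 ± 13.4 in control liver (SD, n = 5 each). Acot1, Nhej1 and Plcd4 were above 200 on every EPF array and on no other array, and Hdgfl3 on the EPF arrays and 1 control array. These genes passed the filter only through the EPFs, so their high level there is no separate result. On the other 15 arrays their signals were near background. The 20 points fell into EPFs and the rest. Over the 15 arrays without EPFs the correlations with A2m were 0.291 for Acot1, 0.0235 for Nhej1, 0.835 for Nip7, 0.66 for Hdgfl3 and -0.00981 for Plcd4. These 15 arrays were among the 20 on which the genes were chosen, and on them A2m was within 128 to 306, close to the filter.

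Lcn2, which binds bacterial iron carriers and is a widely used marker of the acute phase in liver, had signals of 243, 429, 341, 254 and 166 in EPFs. The other groups ran from 120 to 156 in CK-19-positive nodules, from 114 to 147 in CK-19-negative nodules and from 119 to 142 in control liver. The EPF arrays were again above every other array, although array 5 was only just so, and all 15 arrays of the other groups were under 200. Lcn2 was above 200 on 4 arrays and so did not pass the filter. Set against 200 as the lowest usable signal in control liver, Lcn2 in EPFs was at least 1.36-fold higher, and the bound was the same against each kind of nodule. Neutrophils also make lipocalin 2, and 8 of the 9 neutrophil markers (S100a9, Mpo, Elane, Ngp, Camp, Csf3r, Cxcr2 and Itgam) were under 200 on every array of every group. The exception, S100a8, had 276 to 521 in EPFs and 177 to 320 in control liver. The neutrophil markers summed to 1395 to 1707 in EPFs, 1281 to 1493 in CK-19-positive nodules, 1327 to 1502 in CK-19-negative nodules and 1346 to 1520 in control liver.

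Orm1, the alpha-1-acid glycoprotein that carries lipophilic molecules in plasma, had signals of 36902, 29348, 28251, 40905 and 22156 in EPFs and 26057, 20374, 33686, 25071 and 29348 in CK-19-positive nodules. In CK-19-negative nodules they were 19781, 16806, 18818, 28251 and 23930, and in control liver 18672, 15150, 19079, 14444 and 15403. All EPFs and all CK-19-positive nodules were above every control array, while CK-19-negative nodules overlapped the controls. The log2 difference from control was 0.91 in EPFs (SE 0.16, adjusted p = 6.67e-05), 0.69 for the CK-19-positive nodules (SE 0.16, adjusted p = 0.00145) and 0.36 for the CK-19-negative nodules (SE 0.16, adjusted p = 0.141). None reached 2-fold, and without EPF array 5 the difference in EPFs was 1.02 and was called. In EPFs Orm1 ranked 7 to 95 by signal among the probes of an array, near the top of the scale, which limits how far it could rise. Orm1 was lower in CK-19-negative nodules than in EPFs, with a log2 difference of -0.54 (adjusted p = 0.00815), and CK-19-positive nodules and EPFs differed by -0.22 (95% interval -0.55 to 0.12, adjusted p = 0.294).

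The letters upstream of Orm1 and Lcn2 are shown because both genes had every EPF array above every control array. The share of all tested genes with such a separation was not counted, so it does not set these 2 genes apart. In that comparison 56% of all tested genes passed at an adjusted p under 0.05 alone, by limma. They are the 250 bases before the start of each gene in the RefSeq annotation of rat assembly GRCr8, which listed 7 of the 10 members and not A2m, Hp or Lbp. Orm1 lies at chr5:81788259-81788508 on the plus strand and Lcn2 at chr3:36081781-36082030 on the minus strand, and both are printed 5′ to 3′ along the gene. Capitals mark matches on either strand to TTCNNNGAA, the STAT type, to CTGGGA, the core of the element first described in acute phase genes, and to TTNNGNAA, a C/EBP type. CTGGGA matches can lie within a TTCNNNGAA match on the other strand.
Orm1: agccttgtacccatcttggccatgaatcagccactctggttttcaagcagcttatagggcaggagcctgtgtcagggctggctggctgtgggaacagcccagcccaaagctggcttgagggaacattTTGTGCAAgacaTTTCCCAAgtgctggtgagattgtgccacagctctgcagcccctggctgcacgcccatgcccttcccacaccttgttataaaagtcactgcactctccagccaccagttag
Lcn2: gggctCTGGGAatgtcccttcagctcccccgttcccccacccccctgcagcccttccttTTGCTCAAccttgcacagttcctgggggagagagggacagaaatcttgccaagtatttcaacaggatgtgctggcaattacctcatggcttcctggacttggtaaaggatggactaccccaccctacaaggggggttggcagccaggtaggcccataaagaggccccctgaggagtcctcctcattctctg
Orm1 held 2 matches to TTNNGNAA, at 123 to 116 and at 111 to 104 bases before the start, and none to the other motifs. Lcn2 held 1 match to CTGGGA at 245 to 240 bases and 1 to TTNNGNAA at 191 to 184 bases before the start. Among 33469 promoters of the same length, 7.67% held TTCNNNGAA, 25.7% CTGGGA and 37.2% TTNNGNAA, so single matches of the shorter motifs were frequent. The matches describe the letters only.

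Hp, which binds free haemoglobin, and Hpx, which binds heme, were bright in all groups. Hp ran from 28085 to 40905 in EPFs, from 35878 to 44883 in CK-19-positive nodules, from 31747 to 42071 in CK-19-negative nodules and from 21251 to 42071 in control liver. Hpx ran from 39815 to 43418 in EPFs, from 38856 to 40572 in CK-19-positive nodules, from 35191 to 40572 in CK-19-negative nodules and from 20279 to 41540 in control liver. The lowest signals of both genes were those of controls 3 and 4, with 22516 and 21251 for Hp and 26573 and 20279 for Hpx. Hp was higher in CK-19-positive nodules than in control liver by 0.41 on the log2 scale (SE 0.16, adjusted p = 0.0412) and Hpx was higher in EPFs than in control liver by 0.35 (SE 0.14, adjusted p = 0.0363). Without controls 3 and 4, the difference was 0.08 for Hp (adjusted p = 0.646) and 0.04 for Hpx (adjusted p = 0.733). The 44883 of Hp was the highest value in the table. By signal, Hp ranked 7 to 58 and Hpx 2 to 11 among the probes of the EPF arrays. In CK-19-positive nodules Hp ranked 1 to 27 and Hpx 8 to 15. So near the top of the scale, both genes had little range in which to be higher. The genes most like Hp over the 20 arrays were Hpx (r = 0.843), Alb (0.837) and Tf (0.816), and those most like Hpx were Apoe (0.878), Hp (0.843) and Rev1 (0.823).

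**Figure D2:**
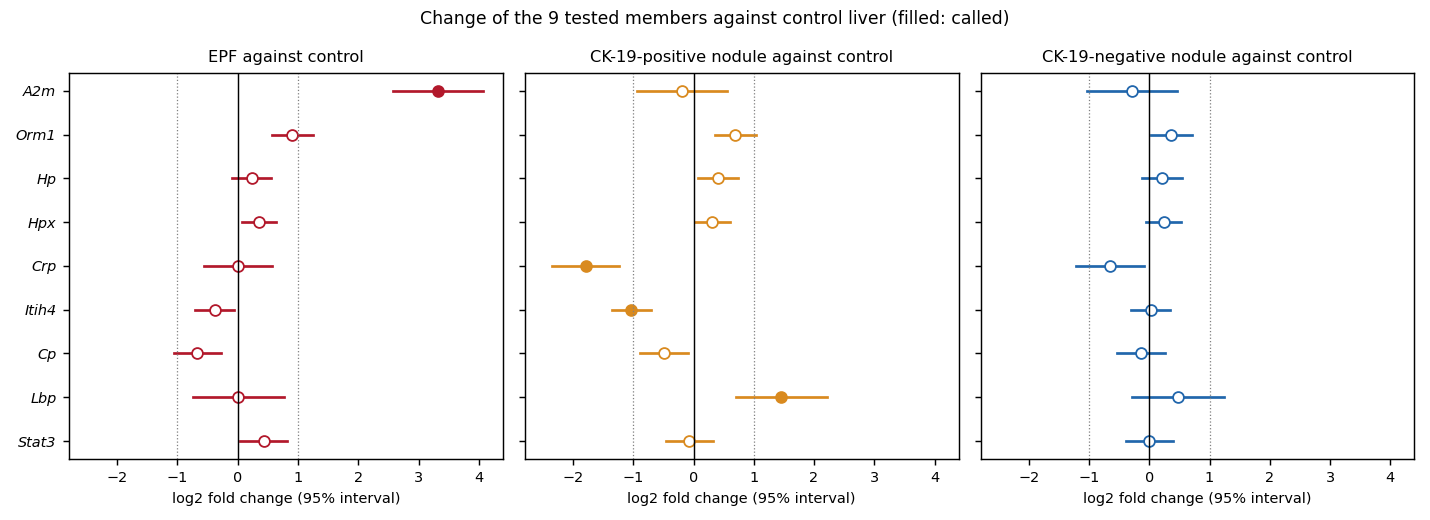
Log2 fold change of the 9 tested members against control liver for EPFs, then CK-19-positive nodules, then CK-19-negative nodules, with 95% intervals from the fit, filled where called and open where not, and dotted lines at 2-fold. A2m in EPFs at 3.33 lay beyond all other values, Crp at -1.79 and Lbp at 1.46 were the farthest from 0 in CK-19-positive nodules, and no symbol was filled for CK-19-negative nodules.

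Crp, a pentraxin that binds phosphocholine on damaged cells and bacteria, was low in CK-19-positive nodules. The signals there were 3103, 3081, 2417, 1876 and 1880, while EPFs had 6759, 8244, 8951, 10694 and 7577. CK-19-negative nodules had 5472, 6982, 5981, 8297 and 2208, and control liver had 7901, 7513, 8623, 5742 and 13628. No CK-19-positive nodule overlapped EPFs or control liver, and CK-19-negative nodule 5, the one hybridized on the chip of the CK-19-positive nodules, was within their range. The log2 difference between CK-19-positive nodules and control liver was -1.79 (SE 0.27, adjusted p = 1.02e-05). Against EPFs it was also -1.79 (SE 0.27, adjusted p = 1.29e-05). EPFs and control liver differed by 0.00 (95% interval -0.56 to 0.56, adjusted p = 0.995).

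Against CK-19-negative nodules, Crp in CK-19-positive nodules differed by -1.14 (SE 0.27, adjusted p = 0.00266). Of the CK-19-negative nodules, chip 1 held only nodule 5, so a value within that chip has 1 array on that side and is given with no test, and a chip effect and a low nodule cannot be told apart. Within chip 1 the difference was 0.13, and with chip as a fixed block, without the EPFs, it was -0.39 (adjusted p = 0.527). It was also short of 2-fold without CK-19-negative nodule 4 (-0.97). Within chip 1, Crp in CK-19-positive nodules differed from controls 1 and 2 by -1.68 (adjusted p = 0.000289). The single CK-19-negative nodule of that chip lay -1.80 from those controls, and on chip 2 CK-19-negative nodules 1 to 4 lay -0.39 from the single control there, both without a test. The genes most like Crp were Wwp1 (r = 0.916), Akr1c14 (0.897) and Tspan12 (0.896), and over the 15 arrays without EPFs the values were 0.913, 0.907 and 0.909.

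**Figure D3:**
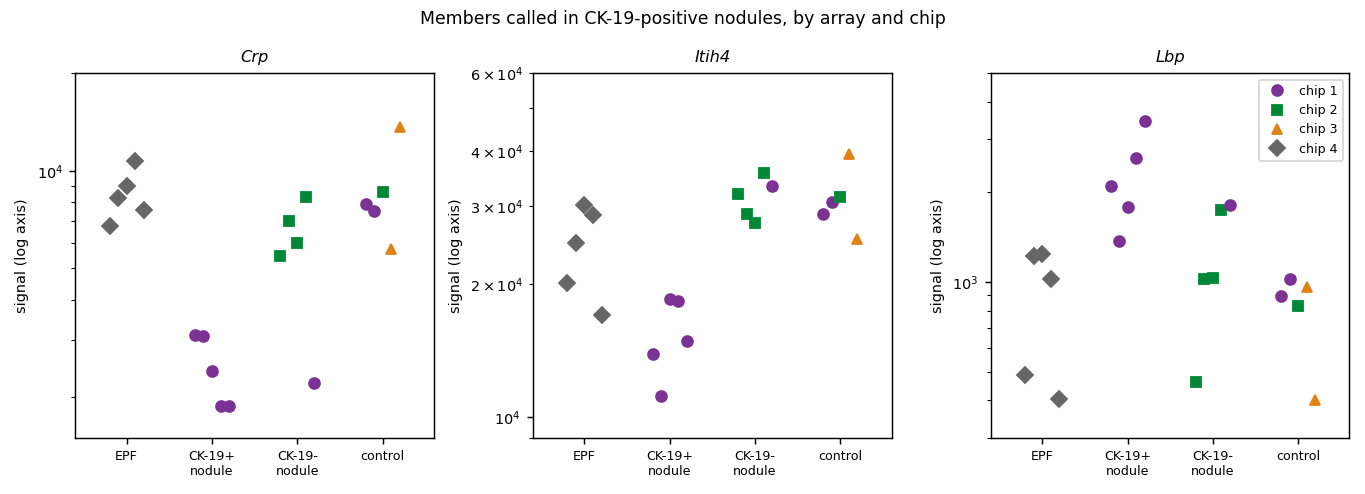
Signals of Crp, Itih4 and Lbp (log axis, no unit, a separate range for each gene) on each array, with EPFs, CK-19-positive nodules, CK-19-negative nodules and control liver from left to right and the symbol giving the chip. For Crp, the CK-19-negative nodule on chip 1 had 2208, beside 1876 to 3103 in the CK-19-positive nodules of that chip, whereas for Itih4 it had 33417, above all 5 of them.

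Itih4, a plasma protein of the inter-alpha-trypsin inhibitor family, had signals of 13897, 11185, 18493, 18310 and 14886 in CK-19-positive nodules. CK-19-negative nodules had 32036, 28880, 27479, 35648 and 33417, EPFs had 20161, 24825, 30187, 28715 and 17007, and control liver had 28880, 30673, 31437, 39337 and 25361. CK-19-positive nodules lay below every CK-19-negative nodule and every control, and overlapped only the lowest EPF. The log2 difference from control liver in CK-19-positive nodules was -1.03 (SE 0.16, adjusted p = 1.25e-05), and the difference from CK-19-negative nodules was -1.05 (SE 0.16, adjusted p = 2.49e-05). Within chip 1 the first was -0.98 (adjusted p = 0.00284), just short of 2-fold, and the second, against 1 CK-19-negative nodule and so with no test, was -1.15. It was also short of 2-fold without control 4 (-0.94), without CK-19-positive nodule 2 (-0.92) and, by the narrowest margin, without CK-19-positive nodule 1 (-0.9998). Without CK-19-positive nodule 2 the difference from CK-19-negative nodules was -0.95, short of 2-fold as well. EPFs differed from control liver by -0.38 (adjusted p = 0.0436), and without EPF array 5 by -0.26 (adjusted p = 0.157). CK-19-negative nodules differed from control liver by 0.02 (95% interval -0.30 to 0.35). Over the 20 arrays, Fgl1 (r = 0.926), Pck1 (0.923) and Haao (0.916) were most like Itih4. Fgl1 averaged 723 ± 463 in CK-19-positive nodules, 2894 ± 1244 in CK-19-negative nodules, 2385 ± 735 in EPFs and 3691 ± 892 in control liver (SD, n = 5 each).

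The upstream letters of Crp and Itih4 are shown because both were called lower in CK-19-positive nodules. As before they are the 250 bases before the start in GRCr8 from RefSeq, with the same matches in capitals. Crp lies at chr13:87693812-87694061 and Itih4 at chr16:6086735-6086984, both on the plus strand.
Crp: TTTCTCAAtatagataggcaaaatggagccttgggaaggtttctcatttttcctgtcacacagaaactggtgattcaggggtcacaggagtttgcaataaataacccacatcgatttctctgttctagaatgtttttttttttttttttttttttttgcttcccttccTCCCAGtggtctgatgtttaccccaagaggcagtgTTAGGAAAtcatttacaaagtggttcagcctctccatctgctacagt
Itih4: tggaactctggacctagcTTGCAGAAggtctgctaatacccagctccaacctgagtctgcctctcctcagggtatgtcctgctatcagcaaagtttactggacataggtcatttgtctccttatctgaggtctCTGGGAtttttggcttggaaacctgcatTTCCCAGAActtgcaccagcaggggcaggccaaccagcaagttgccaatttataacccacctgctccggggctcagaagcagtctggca
Crp held 1 match to CTGGGA, read on the opposite strand, at 82 to 77 bases before the start, and 2 to TTNNGNAA, at 250 to 243 and at 47 to 40 bases. Itih4 held the only TTCNNNGAA match among the 7 members with an entry, at 89 to 81 bases before the start, and a CTGGGA match on the opposite strand at 88 to 83 bases lay inside it. A second CTGGGA match stood at 117 to 112 bases and a TTNNGNAA match at 232 to 225 bases before the start of Itih4.

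Lbp, which passes bacterial lipopolysaccharide to its receptor on macrophages, was the member called higher in CK-19-positive nodules. Its signals there were 2094, 1372, 1782, 2596 and 3453. They were 488, 1218, 1237, 1018 and 404 in EPFs, 462, 1020, 1033, 1734 and 1811 in CK-19-negative nodules, and 895, 1024, 829, 960 and 403 in control liver. All CK-19-positive nodules were above every EPF and every control, and they overlapped CK-19-negative nodules 4 and 5. The log2 difference between CK-19-positive nodules and control liver was 1.46 (SE 0.36, adjusted p = 0.00232), within chip 1 it was 1.17 (adjusted p = 0.0109), and with chip as a fixed block it was 1.04 and missed the threshold (adjusted p = 0.0522). The difference from EPFs was 1.45 (SE 0.36, adjusted p = 0.00247). Against CK-19-negative nodules Lbp differed by 0.98 (SE 0.36, adjusted p = 0.0468), just under 2-fold, and within chip 1, against 1 array and with no test, by 0.25. It was called without CK-19-negative nodule 4 (1.15), without CK-19-negative nodule 5 (1.17) and without CK-19-positive nodule 2 (1.14). EPFs and control liver differed by 0.01 (95% interval -0.75 to 0.77, adjusted p = 0.988).

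The genes most like Lbp were Ltb (r = 0.859), Nfkb2 (0.856) and Clu (0.836). Nfkb2, a subunit of NF-kappaB, averaged 512 ± 88.1 in CK-19-positive nodules, 355 ± 37.4 in CK-19-negative nodules, 330 ± 28.3 in EPFs and 289 ± 49.4 in control liver (SD, n = 5 each). Some markers of other cell types differed between the groups as well. The 7 measured biliary and oval cell markers summed to 8592 to 15313 in CK-19-positive nodules, 3021 to 6133 in EPFs, 1567 to 4458 in CK-19-negative nodules and 1442 to 1764 in control liver, with Krt7 and Cldn4 under 200 on every CK-19-positive nodule array. The 7 measured stellate cell and myofibroblast markers summed to 8229 to 11801 in CK-19-positive nodules, 4179 to 8739 in EPFs, 4029 to 6852 in CK-19-negative nodules and 4217 to 6159 in control liver, with Lum under 200 on all CK-19-positive nodule arrays. For macrophages and Kupffer cells the 7 measured markers summed to 13492 to 22667 in CK-19-positive nodules, 9269 to 11766 in EPFs, 9705 to 12307 in CK-19-negative nodules and 13840 to 22180 in control liver. The sums in CK-19-positive nodules overlapped those in control liver, while the markers within the list differed. Marco was called lower in CK-19-positive nodules than in control liver, at -2.24, and the values of Vsig4 and C1qc, which were not called, were -0.89 and 0.48. The part of these cell types in the levels of the members was not tested.

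Cp, the copper-carrying ferroxidase of plasma, had signals of 6809 to 13665 in EPFs, 9318 to 13431 in CK-19-positive nodules, 11485 to 18583 in CK-19-negative nodules and 11129 to 22414 in control liver. The groups overlapped. It was lower in EPFs than in control liver, with a log2 difference of -0.67 (SE 0.19, adjusted p = 0.0049), and lower in CK-19-positive nodules, with -0.49 (SE 0.19, adjusted p = 0.0381). CK-19-negative nodules differed from control liver by -0.14 (adjusted p = 0.681). Without controls 3 and 4 the adjusted p in CK-19-positive nodules was 0.0525. CK-19-negative nodules were 0.53 above EPFs (adjusted p = 0.0233). The genes most like Cp were Asgr1 (r = 0.877), Eci3 (0.867) and Optn (0.864).

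Stat3 had signals of 668, 1095, 928, 707 and 463 in EPFs and 509, 442, 514, 586 and 583 in CK-19-positive nodules. It had 542, 435, 488, 660 and 664 in CK-19-negative nodules and 594, 635, 478, 705 and 393 in control liver. The EPF arrays 1 to 4 were toward the top of the range and array 5 toward the bottom, and all groups overlapped. The log2 difference between EPFs and control liver was 0.43 (SE 0.19, adjusted p = 0.058), and without EPF array 5 it was 0.60 (adjusted p = 0.00645). Between CK-19-positive nodules and EPFs Stat3 was lower in the nodules, with a log2 difference of -0.50 (adjusted p = 0.0348). The array reads the mRNA of Stat3 and not the phosphorylation that activates the protein. Ddit3 (r = 0.903), Smox (0.826) and S100a8 (0.795) were most like Stat3.

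EPF array 5 had the lowest signal of the EPFs, alone or tied, for 8 of the 10 members (80%), the exceptions being Crp and Hp. Over all tested genes it was the lowest EPF array for 16.9%. It had the lowest A2m, Lcn2, Orm1, Cp, Itih4, Lbp and Stat3, and it tied with array 2 for Hpx. Since each EPF array is a pool of foci, differences among foci within a pool cannot be seen.

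Outside the 10 members, 38 other positive acute phase genes were listed, of which 30 had a probe and 29 were tested. In EPFs against control liver 2 were called higher and 5 lower, or 24.1% of the list beside 12.4% of all tested genes (6.26% higher and 6.15% lower), and the median log2 difference was -0.35, beside -0.02 over all genes. The 2 higher were Mt1, a metal-binding metallothionein, by 1.57 (SE 0.30, adjusted p = 0.000112), and Kng1, a kininogen, by 1.45 (SE 0.32, adjusted p = 0.000617). Mt1 had 34424 to 42749 in EPFs and 4815 to 28495 in control liver, with no overlap. Kng1 had 2423 to 11712 in EPFs and 1800 to 4290 in control liver, and array 5 was again the lowest EPF. Rat kininogen genes are near-identical copies, so the Kng1 probe may read several of them.

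Among the 5 lower genes in EPFs, the log2 difference was -3.02 for Serpina3c, a serine proteinase inhibitor (SE 0.24, adjusted p = 5.36e-10). It was -1.86 for Mbl2, a mannose-binding lectin (SE 0.22, adjusted p = 2.57e-07), and -1.67 for Itih1, a relative of Itih4 (SE 0.19, adjusted p = 1.25e-07). C4b and Agt, which encode complement C4 and angiotensinogen, were the other 2, at -1.38 and -1.37, and C4b has a near-identical copy. Serpina3c had 2103 to 8391 in EPFs, against 23304 to 36692 in control liver. The list held this gene as Serpina3k, which was matched to the Serpina3c probe through an older symbol, and it belongs to a cluster of close copies. Whether Serpina3c and Itih1 rise in the rat acute phase response was not tested here. Their lower signals need not be those of induced genes. In CK-19-positive nodules against control liver, 1 gene of the list was called higher and 5 lower, or 20.7% beside 9.85% of all tested genes (4.95% higher and 4.9% lower), with a median of -0.46 beside -0.01 over all genes. Timp1, an inhibitor of matrix metalloproteinases, was higher by 1.56 (SE 0.14, adjusted p = 4.09e-09), with 952 to 1446 in CK-19-positive nodules and 363 to 450 in control liver. The lower genes included Fgl1, a fibrinogen-like protein of hepatocytes, at -2.52 (SE 0.34, adjusted p = 2.19e-06), Mbl2, about 4-fold down (SE 0.22 on the log2 scale, adjusted p = 1.33e-07), and Itih1 at -1.26 (SE 0.19, adjusted p = 9.76e-06). In CK-19-negative nodules none of the 29 was called in either direction, and at an adjusted p under 0.05 alone 1 was higher and 4 lower.

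Negative acute phase genes are those whose product drops in the response, most of them plasma proteins, and the list also holds Cyp2c11, an enzyme of the hepatocyte. Of 13 tested, 5 were called lower in EPFs, 4 for the CK-19-positive nodules and 1 for the CK-19-negative nodules, each against control liver, and none was called higher. Of all tested genes 6.15%, 4.9% and 0.656% were called lower in the same comparisons, and the 1 gene in CK-19-negative nodules was Cyp2c11. The medians were -0.80, -0.45 and -0.04 in that order, beside -0.02, -0.01 and 0.00 over all genes. Cyp2c11, a male-specific cytochrome P450, had 146 to 187 in EPFs, 1087 to 4269 in CK-19-positive nodules, 4269 to 22156 in CK-19-negative nodules and 27479 to 43418 in control liver. All EPF arrays were under 200, and set against 200 as the lowest usable signal Cyp2c11 was at least 165-fold lower in EPFs than in control liver (adjusted p = 2.87e-13). The log2 difference from control was -3.83 for the CK-19-positive nodules (SE 0.36, adjusted p = 1.4e-08) and -1.25 for the CK-19-negative nodules (SE 0.36, adjusted p = 0.0215). For CK-19-negative nodules, the call did not hold when chip entered the fit as a fixed term (adjusted p = 0.233), by the methods' t-test after Benjamini-Hochberg adjustment (0.141), without control 3 (adjusted p = 0.0548) and without CK-19-negative nodule 1 (-0.83, adjusted p = 0.0603). It was also lost after the 10% point was subtracted (adjusted p = 0.0632) and after signals under 300 were raised to 300 (adjusted p = 0.0604). Mug2, of the murinoglobulins, which are relatives of A2m and make up a family of close copies, averaged 2333 ± 745 in EPFs, 6795 ± 1649 in CK-19-positive nodules, 16351 ± 3196 in CK-19-negative nodules and 19211 ± 5516 in control liver (SD, n = 5 each). Its log2 difference between EPFs and control liver was -3.05 (SE 0.22, adjusted p = 1.72e-10), opposite in sign to that of A2m. F12, coagulation factor XII, and Serpina6, which binds corticosteroids, were also lower in EPFs than in control liver, at -1.87 for F12 (SE 0.15, adjusted p = 7.31e-10) and -1.83 for Serpina6 (SE 0.18, adjusted p = 1.59e-08). In CK-19-positive nodules against control liver, Serpina6 was at -1.78, Rbp4 at -1.53 and Mug2 at -1.49, all called lower.

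**Figure D4:**
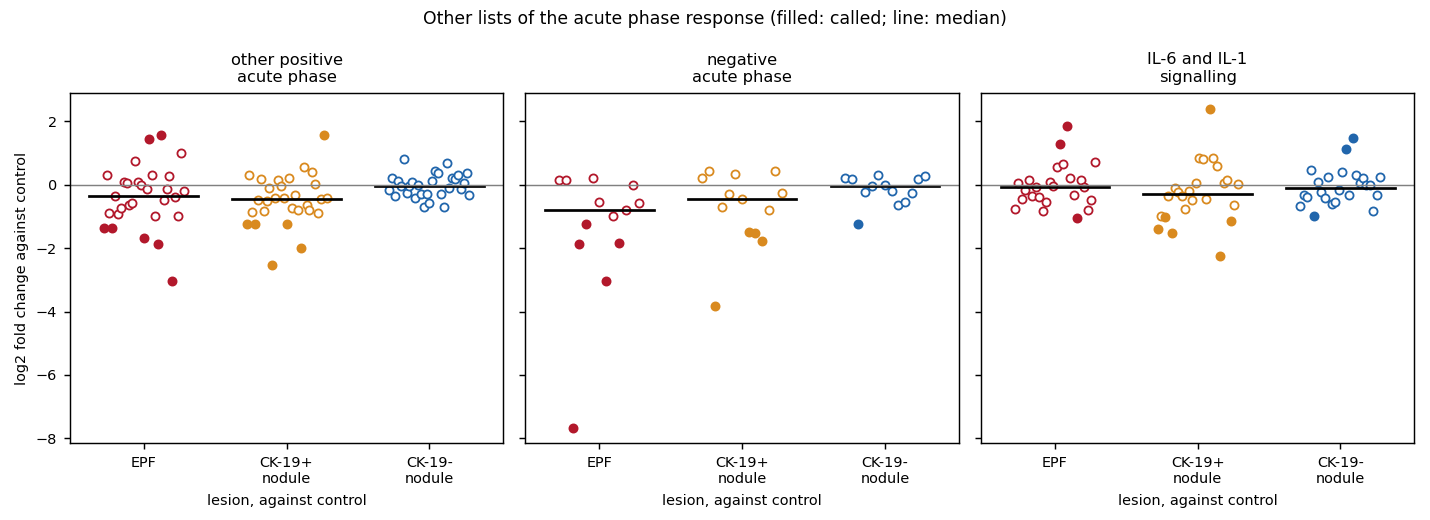
Log2 fold change against control liver of the tested genes of 3 lists, 29 other positive acute phase, 13 negative acute phase and 24 IL-6 and IL-1 signalling genes, for EPFs, then CK-19-positive nodules, then CK-19-negative nodules from left to right, with 1 point per gene, filled where called, and a line at the median. The medians of all 3 lists lay below 0 in each kind of lesion, and the lowest point, at -7.65, is Cyp2c11 in EPFs, where its signal was under 200.

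Of 48 listed genes of interleukin-6 and interleukin-1 signalling, 43 had a probe and 24 were tested. Called against control liver were 2 higher and 1 lower in EPFs, 1 higher and 5 lower in CK-19-positive nodules, and 2 higher and 1 lower in the CK-19-negative group. In EPFs this was 12.5% of the list beside 12.4% of all tested genes. For the CK-19-positive nodules it was 25% beside 9.85%, and for the CK-19-negative nodules 12.5% beside 1.95%. The list medians were -0.07, -0.29 and -0.10 in that order. Leaving out each array gave 5 to 7 calls for CK-19-positive nodules and 1 to 3 for CK-19-negative nodules. The lower genes in CK-19-positive nodules included Cebpa (-1.38), Socs2 (-1.13) and Foxa1 (-1.03). With chip as a fixed block, Cebpa and Socs2 were short of 2-fold (-0.77 and -0.75), as was Foxa1 within chip 1 (-0.99). After signals under 300 were raised to 300, Socs2 and Foxa1 were at -0.25 and -0.26. Myc, a growth regulator that cytokines and mitogens induce, was called higher in all 3 lesions, by 1.86 in EPFs (SE 0.17, adjusted p = 5.2e-09), 2.39 for the CK-19-positive nodules (SE 0.17, adjusted p = 1.51e-10) and 1.48 for the CK-19-negative nodules (SE 0.17, adjusted p = 2.03e-06). Myc ran from 602 to 984 in EPFs, 912 to 1617 in CK-19-positive nodules, 538 to 918 in CK-19-negative nodules and 206 to 319 in control liver, so no lesion overlapped the controls. Junb, a subunit of the AP-1 transcription factor, was higher than in control liver by 1.26 in EPFs (SE 0.20, adjusted p = 1.12e-05) and 1.11 in CK-19-negative nodules (SE 0.20, adjusted p = 0.00046). The difference in CK-19-negative nodules was just short of 2-fold without control 5 (0.94) or without CK-19-negative nodule 4 or 5 (both 0.99).

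Il6r, the interleukin-6 receptor, had 252, 295, 320, 291 and 290 in EPFs and 281, 278, 334, 340 and 294 in CK-19-positive nodules. CK-19-negative nodules had 778, 807, 539, 439 and 575, and control liver had 699, 509, 595, 404 and 434. EPFs and CK-19-positive nodules lay below every CK-19-negative nodule and every control. Il6r was called higher in CK-19-negative nodules than in EPFs, by 1.08 (SE 0.15, adjusted p = 4.86e-06), and lower in CK-19-positive nodules than in the CK-19-negative group, at -1.01 (SE 0.15, adjusted p = 3.39e-05). Both calls were near the edge of 2-fold. The first was short of it without CK-19-negative nodule 1 (0.996) or 2 (0.98), and with 50 added before log2 (0.97). For the second, the value against the 1 CK-19-negative nodule of chip 1 was -0.92. Against control liver the differences were -0.84 in EPFs (adjusted p = 7.99e-05) and -0.77 in CK-19-positive nodules (adjusted p = 0.000304), under 2-fold in both.

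Cebpb, which encodes C/EBP beta, a factor of the interleukin-6 response in hepatocytes, had 6141 to 7980 in EPFs, 3002 to 3956 in CK-19-positive nodules, 3322 to 8017 in CK-19-negative nodules and 5175 to 8565 in control liver. Cebpb was lower in CK-19-positive nodules than it was in EPFs, at -1.03 (SE 0.21, adjusted p = 0.000293), with no overlap, and was just short of 2-fold without EPF array 2 or CK-19-positive nodule 4 (-0.99 and -0.98). Foxa3, a hepatocyte forkhead factor, was lower than in EPFs both in CK-19-positive nodules, at -1.67 (SE 0.15, adjusted p = 1.09e-08), and in the CK-19-negative group, at -1.16 (SE 0.15, adjusted p = 9.29e-07). Onecut1, the hepatocyte factor HNF6, was lower in CK-19-positive nodules than in the CK-19-negative group, at -2.45 (SE 0.38, adjusted p = 3.34e-05). It ran from 415 to 796 in CK-19-positive nodules, 1505 to 5453 in CK-19-negative nodules, 839 to 2928 in EPFs and 1433 to 6600 in control liver. Every CK-19-positive nodule was thus below every control array. The call of Onecut1 in EPFs against control liver (-1.07, adjusted p = 0.0195) was lost without control 4 (-0.76, adjusted p = 0.0771) and without EPF array 4 (-0.90, adjusted p = 0.0586). Mcl1, a survival gene among the targets of STAT3, was lower in CK-19-positive nodules than it was in EPFs, at -1.10 (SE 0.14, adjusted p = 1.99e-06).

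**Figure D5:**
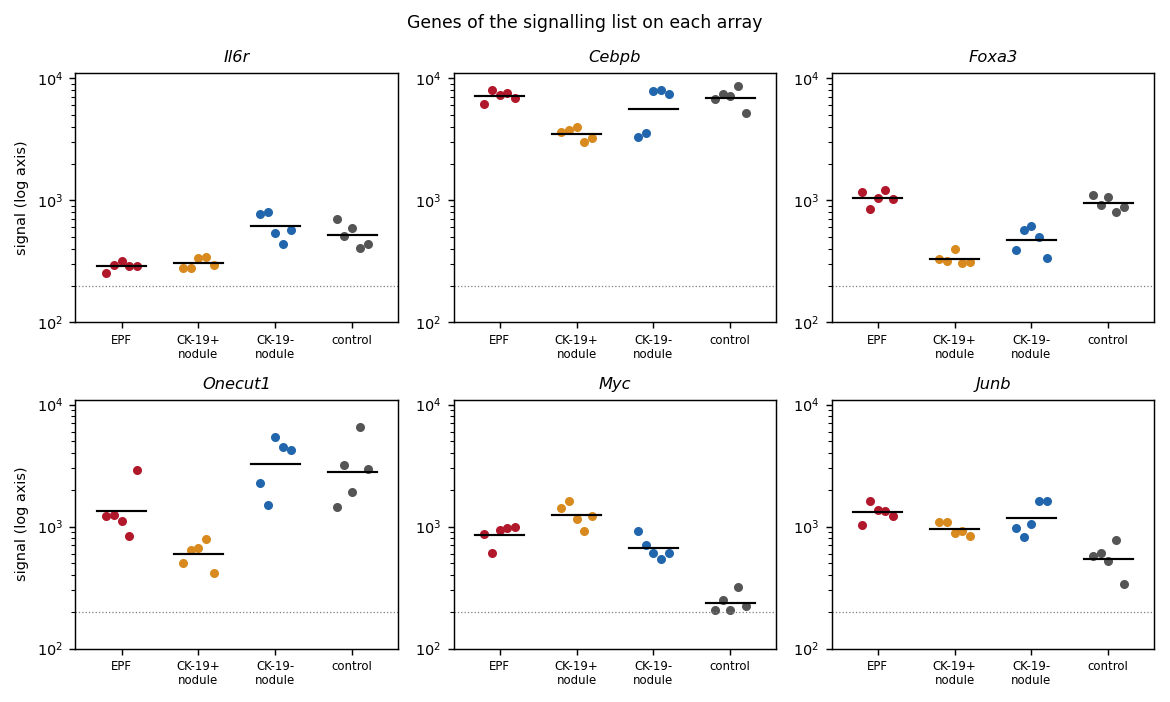
Signals (log axis, no unit) of Il6r, Cebpb, Foxa3, Onecut1, Myc and Junb on each array, with EPFs, CK-19-positive nodules, CK-19-negative nodules and control liver from left to right, a black line at the geometric mean and a dotted line at 200. Il6r was between 252 and 340 for EPFs and the CK-19-positive nodules, and at 404 or above in the other groups, and Myc was at 538 or above in all lesions and at 319 or below in control liver.

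Between lesions, the members called in CK-19-positive nodules against EPFs were 3 of 9 (A2m and Crp lower, Lbp higher), where 6.16% of all tested genes were called, 3.43% higher and 2.74% lower. In CK-19-negative nodules against EPFs 1 was called (A2m lower), where 8.92% of all tested genes were called, 4.79% higher and 4.13% lower. For CK-19-positive nodules against the CK-19-negative group 2 were called (Crp and Itih4 lower), where 4.79% of all tested genes were called, 2.39% higher and 2.39% lower. With no fold threshold 5, 5 and 3 of the 9 members passed in these comparisons, in that order, where 47.1%, 52.4% and 28.9% of all tested genes did. The comparisons share arrays, so they are not independent of each other.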

How the data were processed

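RNA from laser-microdissected lesions and control liver was measured on Illumina RatRef-12 BeadChips. The authors read the scans in BeadStudio 3.0.19.0 (submitters' processing notes) and deposited quantile-normalized signal intensities on a linear scale. These intensities were used as deposited, after log2. A second deposited table, of signals before normalization, was not used, because its 40 value columns, 20 of them signals, name no sample. Of 22523 probes, 13793 named 1 gene in the platform annotation and 8730 none. The brightest probe stood for a gene. The number of arrays, 5 per group, limits the precision.

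Genes with a signal above 200 on at least 5 arrays were fitted with limma 3.58.1 in R 4.3.3, with all 20 arrays in 1 fit and 6 comparisons, and p-values were adjusted by Benjamini-Hochberg over the 6102 genes. The fit was tested on simulated data with known changes. Correlations used log2 signals. Alternatives were other filters, background treatments and probe choices, chip as a block or within chips, the methods' t-test, and each array left out in turn. Leaving out controls 3 and 4 together, and chip 1 alone for comparisons with CK-19-negative nodules, were chosen after seeing the data.

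The members and gene lists were chosen with earlier results of these data known. Named were the 10 members, called genes of the lists, with large changes from control preferred, and signalling genes called between lesions. The genes most like each member were also named (5 for A2m, 3 for the others), with Krt19 and Gstp1 as label checks. Not every called gene of a list is named. Older symbols were matched through the RefSeq gene table (Mt1, Kng2, Serpina3c). Promoters came from RefSeq, GRCr8. Figures were drawn with matplotlib.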

Additional observations from a re-analysis of the deposited data

Results flagged for a closer look

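Of the differences between lesions, 6 were called in the fit that compares the 2 lesions directly, at an adjusted p under 0.05 and at least 2-fold. Others passed at an adjusted p under 0.05 alone, as counted above. Of all tested genes, 6.16% were called in CK-19-positive nodules against EPFs and 8.92% in CK-19-negative nodules against EPFs. Between the 2 kinds of nodule 4.79% were called. A2m differed by -3.52 on the log2 scale between CK-19-positive nodules and EPFs and by -3.61 between CK-19-negative nodules and EPFs. Crp differed by -1.79 between CK-19-positive nodules and EPFs and by -1.14 between CK-19-positive nodules and the CK-19-negative group, of which the second was 0.13 within chip 1, where only 1 CK-19-negative nodule lies. Itih4 differed by -1.05 between CK-19-positive nodules and the CK-19-negative group. Lbp differed by 1.45 between CK-19-positive nodules and EPFs. EPFs share no chip with another group, so for A2m, for Lbp and for the first value of Crp, chip and group cannot be told apart. All EPFs were taken 1 week after PH and 4 weeks after DENA, and all nodules 7 and 10 weeks after. Time since surgery and treatment therefore cannot be told apart from the kind of lesion in these comparisons either.

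In 2 of the 40 sets of 5 arrays, 1 array stood far from the other 4 in signal, and chance gives about 1 in 20. For A2m, CK-19-negative nodule 1 had 128 and the next lowest nodule 191, a gap of 0.754 of the range of that group. Also for A2m, control 5 had 306 and the next highest control 224, a gap of 0.748 of the range. Both lie near the filter of 200.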

How the results depend on the processing

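Of 88 recounts of the members called, 75 stayed within 1.5 times the count first given. Of 762 recomputed changes of single members, 740 kept their side of the threshold. Among these 740 a change of direction was let pass where neither fit had an adjusted p under 0.05. With no filter, the members called were 2 in EPFs against control liver and 2 in CK-19-negative nodules against EPFs, Lcn2 being added to A2m, although its signals outside EPFs were all under 200. With the filter in the methods, applied here to the 20 arrays, they were 0 in both, because the median signal of A2m over these arrays was under 300 and it was not tested. With no fold threshold they were 5 for EPFs and 6 for CK-19-positive nodules against control liver, and 5 against EPFs for either kind of nodule. For CK-19-positive nodules against the CK-19-negative group, 1 was called with chip as a random block (correlation 0.0789), 1 with chip as a fixed block and 1 by the methods' t-test after Benjamini-Hochberg. Crp was the gene lost, and within chip 1 its difference was 0.13. Chip 1 holds 1 CK-19-negative nodule, which the fit assumes to vary like the other groups. No count of calls within chip 1 is therefore given for comparisons with CK-19-negative nodules, although the 88 recounts include them. Leaving out each array gave 1 to 2 in EPFs against control liver, 2 to 3 in CK-19-positive nodules against control liver, 0 to 0 in CK-19-negative nodules against control liver, 3 to 3 in CK-19-positive nodules against EPFs, 1 to 1 in CK-19-negative nodules against EPFs, and 2 to 3 for CK-19-positive nodules against the CK-19-negative group. Over all genes, subtracting the 10% point gave 1381 calls instead of 757 in EPFs against control liver, 1084 instead of 601 for CK-19-positive nodules against control liver, 285 instead of 119 for CK-19-negative nodules against control liver, 926 instead of 376 for CK-19-positive nodules against EPFs, 1165 instead of 544 for CK-19-negative nodules against EPFs, and 565 instead of 292 between the nodules. The cause was not tested. Within chip 2, CK-19-negative nodules had 1 control beside them, so no count of calls is given for that chip. Normalizing anew from the signals before normalization (neqc) was not run, since those columns name no sample. No paired analysis was possible because the replicate numbers were given in accession order and pair no arrays. Signals under 200 are near background, so Lcn2 outside EPFs and A2m outside EPFs have little range in which to be lower.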
